A study of Mus musculus with 9 samples.

Results

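The 10 genes described here encode chaperones of the endoplasmic reticulum and the proteins that raise or lower them when unfolded protein builds up there: Hspa5, Hsp90b1, Calr, Pdia4, Sdf2l1, Dnajb9, Herpud1, Xbp1, Atf4 and Ddit3. They were chosen by name, as the rows of a count table whose Ensembl identifiers map to these symbols, and they are 10 of 54532 genes in that table. RNA of tibialis anterior muscle was sequenced in bulk in 9 libraries of 3 groups after injury with barium chloride, which destroys muscle fibres and starts their regeneration. Young PBS libraries 1, 2 and 3 came from young mice and old PBS libraries 2, 3 and 4 from old mice, and PBS is the saline vehicle. Old rMETRNL libraries 1, 2 and 3 came from old mice given recombinant METRNL, a secreted protein made by macrophages among other cells. All were C57/BL6J mice that carried the injury, so there were no uninjured muscles, and each group's PBS or rMETRNL was injected into the muscle 3 times, starting at the injury. The study's text gives young mice as 4 months and old mice as 24 months of age, while its methods allow 3 to 4 months and 24 to 26 months. The study's results give the dose as 0.1 ug and its methods as 0.1 ng. Its text has whole muscle collected at day 8, whereas the series is described as collected 4 days after injury and its libraries as a suspension of muscle cells. Nothing in the labels says whether muscles were pooled, so p-values measure the spread between these libraries.

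The endoplasmic reticulum is where secreted and membrane proteins, collagen among them, are folded. When unfolded protein builds up there, 3 sensors in its membrane start the unfolded protein response. ATF6 is cut to release a transcription factor, IRE1 splices the mRNA of Xbp1 so that it encodes an active factor, and PERK slows translation while the translation of Atf4 rises, with Ddit3 (CHOP) among the targets of ATF4. The chaperone genes share a promoter sequence, the endoplasmic reticulum stress element (ERSE), at which ATF6 and XBP1 act together with the factor NF-Y. In muscle the response is known from differentiation of myoblasts and from regeneration after injury. Because Xbp1 splicing, translation of Atf4 and cutting of ATF6 leave the number of reads on a gene as it is, the counts measure RNA amount and not these steps.

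The promoter sequences of 4 genes are shown because the ERSE is the feature these genes are known for, and it was searched for without use of the counts. An ERSE was taken as CCAAT, any 9 bases and CCACG, and the related ERSE-II as ATTGG, 1 base and CCACG, on either strand. In RefSeq's promoter windows, which run from 250 bases before to 50 bases after a gene's start, an ERSE occurred in 39 of 32851 windows (0.119%) and an ERSE-II in 12 (0.0365%). All 10 genes had a window. Hspa5, Hsp90b1 and Calr held an ERSE and Herpud1 an ERSE-II, so 4 of 10 genes held either, against 0.155% of all windows. Because the element is one these genes are already known for, the contrasts with all windows here and below are descriptions and no test. The 250 bases before the start are printed 5′ to 3′ on the gene's strand, from GRCm38.p6, with the ERSE and ERSE-II matches in capitals, so that a match on the opposite strand reads CGTGG first. GENCODE places the outermost starts of Hspa5, Hsp90b1 and Calr inside these stretches. They lie at chr2:34771840-34772089 on the plus strand for Hspa5, at chr10:86705445-86705694 on the minus strand for Hsp90b1, at chr8:84846932-84847181 on the minus strand for Calr and at chr8:94386179-94386428 on the plus strand for Herpud1.
Hspa5: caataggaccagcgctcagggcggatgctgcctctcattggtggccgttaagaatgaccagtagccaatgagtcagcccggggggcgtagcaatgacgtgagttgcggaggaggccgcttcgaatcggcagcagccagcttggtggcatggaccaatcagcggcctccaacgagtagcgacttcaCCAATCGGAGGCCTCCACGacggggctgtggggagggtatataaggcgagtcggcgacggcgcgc
Hsp90b1: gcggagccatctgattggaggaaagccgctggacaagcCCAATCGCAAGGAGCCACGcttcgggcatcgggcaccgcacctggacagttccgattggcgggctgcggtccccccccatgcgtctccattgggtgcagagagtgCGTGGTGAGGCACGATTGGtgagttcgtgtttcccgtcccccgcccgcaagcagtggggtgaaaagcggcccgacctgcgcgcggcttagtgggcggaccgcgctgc
Calr: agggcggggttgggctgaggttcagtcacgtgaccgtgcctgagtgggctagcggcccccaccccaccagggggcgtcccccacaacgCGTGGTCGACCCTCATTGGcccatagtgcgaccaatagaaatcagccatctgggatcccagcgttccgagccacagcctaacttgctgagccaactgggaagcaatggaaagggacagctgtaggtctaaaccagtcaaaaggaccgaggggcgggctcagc
Herpud1: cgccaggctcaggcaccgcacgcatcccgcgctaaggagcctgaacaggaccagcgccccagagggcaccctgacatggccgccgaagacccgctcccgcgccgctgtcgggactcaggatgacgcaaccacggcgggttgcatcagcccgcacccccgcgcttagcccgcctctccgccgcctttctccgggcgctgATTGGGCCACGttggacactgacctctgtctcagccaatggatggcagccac

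Hspa5 carried its ERSE closest to the start, 65 to 47 bases before it. Hsp90b1 carried 2, at 212 to 194 bases before the start and, on the opposite strand, at 107 to 89 bases. The match of Calr, on the opposite strand, lay 162 to 144 bases before the start, and the ERSE-II of Herpud1 lay 52 to 42 bases before it. The Herpud1 window also held TTGCATCA, a form of the amino acid response element bound by ATF4 with its partners, 112 to 105 bases before the start. That sequence occurred in 294 windows (0.895%), and Herpud1 was the only one of the 10 genes with it. TGACGTGG, a sequence to which ATF6 and XBP1 can bind, occurred in 222 windows (0.676%) and in 0 of the 10. With 1 mismatch allowed in the CCAAT or CCACG part, 8 of the 10 genes had an ERSE or ERSE-II, as did 2.58% of all windows. The 2 genes without a match at that setting, Dnajb9 and Xbp1, did not hold these letters in these windows. None of the matches overlapped another in the 4 promoters.

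The libraries held 16238700 to 22522560 counts, and a count of 3, taken as the floor, corresponded to 0.131 to 0.202 CPM (reads on a gene relative to the library's total, adjusted by edgeR's TMM factors). Every one of the 10 genes was far above that floor in every library, from 71 counts of Sdf2l1 in old PBS 2 to 4517 of Hspa5 in old PBS 3, so depth did not limit detection, and all 10 passed edgeR's filter on low counts in each comparison. A second Ensembl row named Ddit3 (ENSMUSG00000116429) covers 105 exonic bases that all lie inside the main Ddit3 gene, and it had 0 counts in the 9 libraries. The old PBS libraries stood apart from each other. On the first principal component of all genes old PBS 4 scored 80.2 and old PBS 2 47.8. There old PBS 3 scored -13.7, within the -33.3 to -4.72 of the 6 libraries from the other groups. On the second component old PBS 3 scored -44.7 and old PBS 2 -31.4, outside the -5.73 to 34.3 of those 6 libraries, while old PBS 4 scored 17.25, inside it. The comparisons with old PBS are therefore also given without old PBS 3 and without old PBS 4. Transcripts of other tissues were present in old PBS as well. Of 11 liver genes 6 to 8 were at 0 in each young PBS and old rMETRNL library, against 0 or 1 in each old PBS library, and the brain genes Mobp and Snap25 were at 0 in all young PBS and old rMETRNL libraries.

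Levels of the 10 genes differed from each other far more than between groups. Per kilobase of exon, the mean CPM over 9 libraries was highest for Calr, the calcium-binding chaperone of glycoproteins (67.8 ± 4.89 CPM per kb, SD), and lowest for Sdf2l1, a partner of the HSP70 system of the endoplasmic reticulum (5.88 ± 1.26). Between them stood Hspa5 (51.8 ± 3.84), Atf4 (50.8 ± 11.4), Herpud1 (39.8 ± 9.04), Hsp90b1 (36.8 ± 2.51), Xbp1 (21.1 ± 1.83), Dnajb9 (15.2 ± 3.87), Pdia4 (14.1 ± 2.42) and Ddit3 (10.2 ± 1.01). Calr was above Hspa5 in every library, since the lowest Calr value (62.5) exceeded the highest of Hspa5 (57.6). The ranges of Calr and Atf4 overlapped, since Atf4 reached 75.4 in old PBS 4. Hspa5, Atf4, Herpud1 and Hsp90b1 followed with ranges that overlapped between neighbours, as did those of Xbp1, Dnajb9, Pdia4 and Ddit3. Ranges did not overlap between Hsp90b1 and Xbp1, or between Ddit3 and Sdf2l1. The highest library exceeded the lowest by 1.22-fold for Hsp90b1 and Calr, 1.23-fold for Hspa5, 1.30-fold for Xbp1 and 1.40-fold for Ddit3, and by 1.82-fold to 2.36-fold for the other 5 genes. The 10 genes together made up 935 ± 31.9 CPM in young PBS, 947 ± 108 in old PBS and 939 ± 23.1 in old rMETRNL (SD, n = 3).

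**Figure D1:**
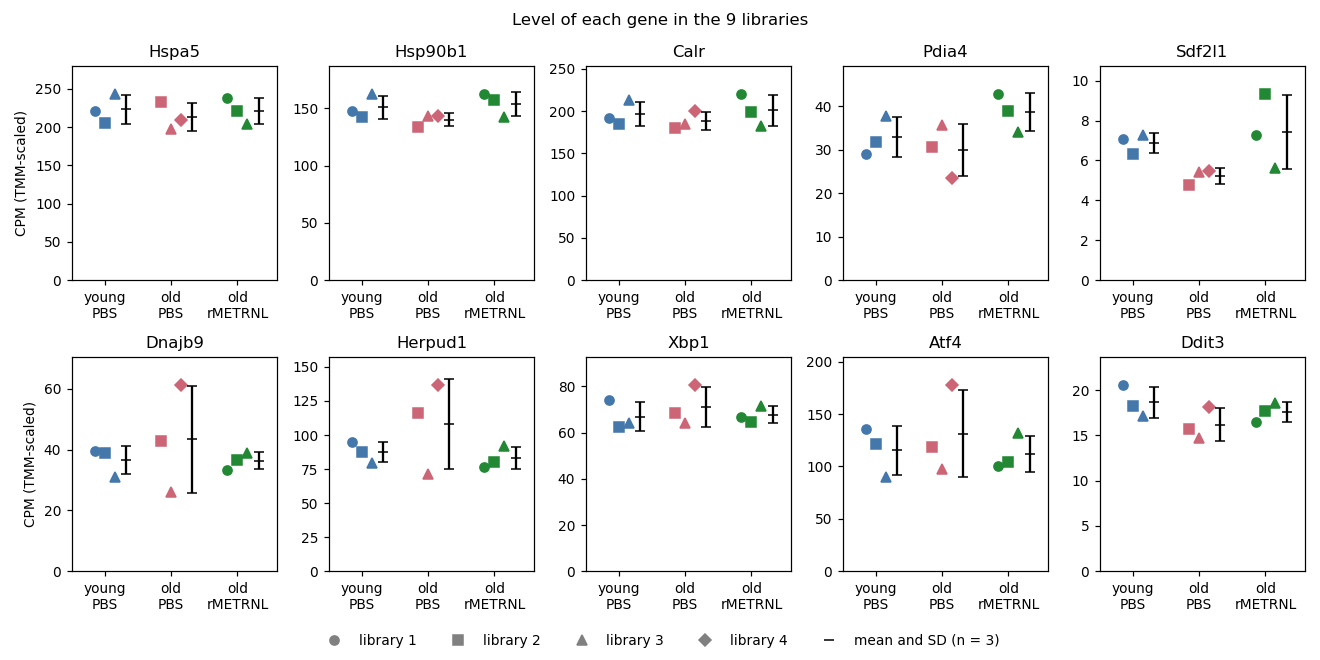
Each panel plots one gene's TMM-scaled CPM (vertical axis, from 0) in the 3 libraries of each group, with the library number given by the symbol and the mean and SD as a black bar. The groups overlap in 9 panels, Sdf2l1 lies lowest in the old PBS libraries, and Dnajb9, Herpud1 and Atf4 have their widest spread in old PBS, with library 4 highest and library 3 lowest.

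The most abundant chaperones of the lumen varied little from library to library. Hspa5 (ENSMUSG00000026864, BiP) is the HSP70 of the endoplasmic reticulum, which also holds the sensors inactive. It lies on chromosome 2 at 34771970 to 34777547, with exons that cover 4229 bases. Hspa5 was at 220.4, 206 and 243 CPM in young PBS 1, 2 and 3, at 233, 198 and 209.6 in old PBS 2, 3 and 4, and at 238, 221 and 204 in old rMETRNL 1, 2 and 3. The highest and lowest of these values were in a young PBS and an old PBS library, and the 3 ranges lay over each other. Hsp90b1 (ENSMUSG00000020048, GRP94), the HSP90 of the same compartment, lies on chromosome 10 at 86690209 to 86705509. It was at 148, 143 and 163 CPM in young PBS, at 134, 144 and 144 in old PBS and at 163, 157 and 142 in old rMETRNL. An antisense pseudogene, 1810014B01Rik, shares 415 exonic bases with Hsp90b1 and the strand setting of the counting is not given, so reads there cannot be assigned to one or the other with certainty. Calr (ENSMUSG00000003814), on chromosome 8 at 84841850 to 84846934, was at 192, 185 and 213 CPM in young PBS, at 180.1, 185 and 200.1 in old PBS and at 221, 199 and 183 in old rMETRNL.

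Pdia4 and Sdf2l1 were lower and less even. Pdia4 (ENSMUSG00000025823), a protein disulfide isomerase on chromosome 6 at 47796141 to 47813430, was at 29.0, 31.8 and 37.9 CPM in young PBS, at 30.7, 35.6 and 23.5 in old PBS and at 42.9, 38.9 and 34.1 in old rMETRNL. Old PBS 4 had the lowest value of the 9, and 2 old rMETRNL libraries had the highest, but old PBS 3 lay above old rMETRNL 3. Sdf2l1 (ENSMUSG00000022769), on chromosome 16 at 17130138 to 17132383, was at 7.1, 6.3 and 7.3 CPM in young PBS, at 4.8, 5.4 and 5.5 in old PBS and at 7.3, 9.3 and 5.6 in old rMETRNL. It was the only one of the 10 whose old PBS values lay below all values of both other groups, by a margin of 5.6 against 5.5 CPM from old rMETRNL 3. When the counts were divided by the library totals alone, old PBS 3 (6.31 CPM) rose above old rMETRNL 3 (5.51). The separation from young PBS then remained only by 6.31 against 6.34 CPM in young PBS 2.

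Herpud1 and Dnajb9, which act in the disposal of misfolded protein, varied most within old PBS. Herpud1 (ENSMUSG00000031770), a membrane protein of the degradation machinery on chromosome 8 at 94386438 to 94395377, was at 94.6, 87.8 and 79.7 CPM in young PBS and at 76.3, 80.2 and 91.9 in old rMETRNL. In old PBS 2, 3 and 4 it was at 116, 71.6 and 137 CPM, the lowest of the 9 values and the 2 highest. Dnajb9 (ENSMUSG00000014905, ERdj4), a J-domain co-chaperone of Hspa5 on chromosome 12 at 44205559 to 44210326, was at 39.7, 38.9 and 31.1 CPM in young PBS, at 42.7, 25.99 and 61.3 in old PBS and at 33.3, 36.7 and 39.0 in old rMETRNL. With TMM factors, old PBS thus held the highest and the lowest value of both genes. Scaled by total counts alone, Herpud1 was at 106, 83.2 and 113 CPM and Dnajb9 at 39.0, 30.2 and 50.6 CPM in old PBS 2, 3 and 4, in the same order with a narrower spread. The lowest Herpud1 value was then that of old rMETRNL 1 (81.1 CPM), below old PBS 3.

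Among the transcription factors, Atf4 followed the same libraries, and Xbp1 and Ddit3 varied less. Atf4 (ENSMUSG00000042406), the effector of PERK on chromosome 15 at 80255184 to 80257541, was at 135, 121 and 89.6 CPM in young PBS, at 119, 97.3 and 178 in old PBS and at 101, 104 and 132 in old rMETRNL. Old PBS 4 was highest, and old PBS 3 was among the lowest 3. Xbp1 (ENSMUSG00000020484), the target of IRE1 on chromosome 11 at 5520659 to 5525893, was at 74.0, 62.2 and 64.1 CPM in young PBS, at 68.3, 64.1 and 80.6 in old PBS and at 66.9, 64.6 and 71.7 in old rMETRNL. Ddit3 (ENSMUSG00000025408), the pro-apoptotic factor CHOP on chromosome 10 at 127290774 to 127296288, was at 20.6, 18.2 and 17.2 CPM in young PBS, at 15.7, 14.7 and 18.2 in old PBS and at 16.5, 17.7 and 18.6 in old rMETRNL. Its 2 lowest values were in old PBS, with old PBS 4 inside the range of the other groups. Mars shares 68 exonic bases with Ddit3 on the other strand, so a small part of these counts is uncertain.

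Old PBS was compared with young PBS to ask whether age altered these genes in injured muscle. With edgeR's quasi-likelihood fit and Benjamini-Hochberg adjustment over 15560 genes, 0 of the 10 passed the threshold of 0.05, against 0.0643% of all genes tested (10 genes). At an unadjusted p under 0.05 it was also 0 of 10, against 5.91% of all genes, and DESeq2's Wald test called 0 of 10. Groups did not overlap for 1 of the 10, the lower Sdf2l1, where 5.25% of all genes lay apart in that direction and 5.28% in the other. Sdf2l1 differed by a log2 fold change of -0.40 (SE 0.21, 95% interval -0.87 to 0.075, edgeR adjusted p = 0.948). Herpud1 differed by 0.30 (SE 0.24, interval -0.24 to 0.85) and Dnajb9 by 0.24 (SE 0.28, interval -0.41 to 0.89), and the other 7 log2 fold changes lay between -0.21 for Ddit3 and 0.18 for Atf4. The intervals of Hspa5 (-0.47 to 0.34), Hsp90b1 (-0.47 to 0.25) and Calr (-0.45 to 0.32) leave room for shifts of under 0.5 on the log2 scale in either direction. The median over the 10 genes was -0.065, beside 0.014 over all genes tested.

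**Figure D2:**
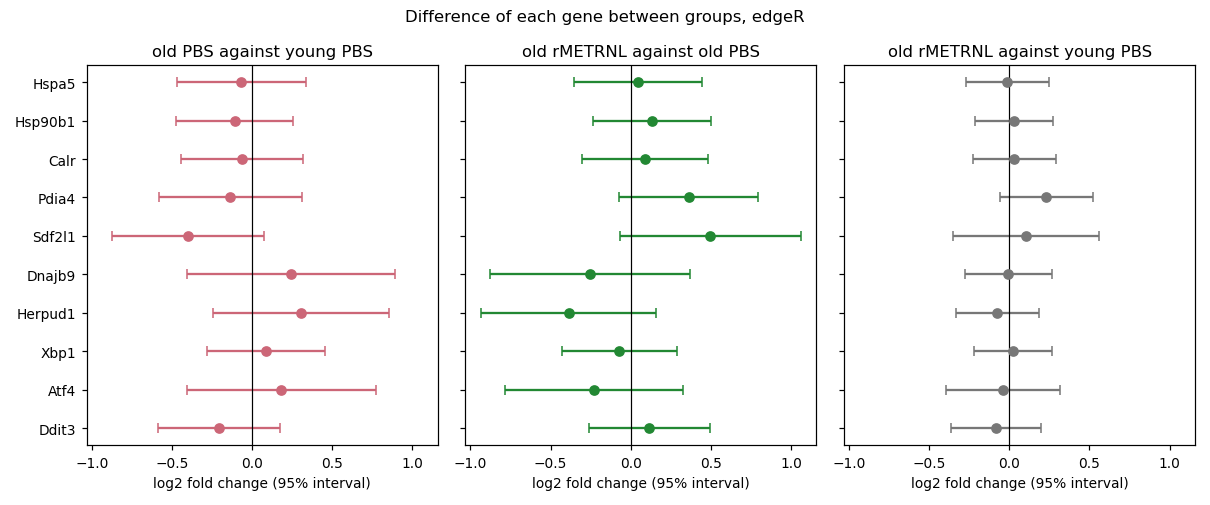
Points give the edgeR log2 fold change of each gene (rows) in the 3 comparisons (panels), and bars the 95% interval of that fold change (horizontal axis, log2). All 30 intervals include 0, and they are widest for Dnajb9 in the panels that use old PBS and narrowest between old rMETRNL and young PBS.

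Old rMETRNL was compared with old PBS to ask whether the injected protein altered these genes in old muscle. The comparison uses the same old PBS libraries as the one by age, so opposite signs in the 2 comparisons are not separate evidence. Of the 10 genes 0 passed the edgeR threshold, against 0.108% of 15682 genes tested (17 genes), and 0 had an unadjusted p under 0.05, against 8.07%. DESeq2 called 0 of the 10. Sdf2l1 alone did not overlap, as the higher in old rMETRNL, where 6.95% of all genes lay apart upwards and 5.69% downwards. Its log2 fold change was 0.50 (SE 0.25, 95% interval -0.066 to 1.06, edgeR adjusted p = 0.663). Pdia4 differed by 0.36 (SE 0.19, interval -0.070 to 0.79, edgeR adjusted p = 0.669), Herpud1 by -0.39 (SE 0.24, interval -0.93 to 0.16, edgeR adjusted p = 0.713), Dnajb9 by -0.25 (SE 0.28) and Atf4 by -0.23 (SE 0.24). Hspa5, Hsp90b1, Calr, Xbp1 and Ddit3 lay between -0.071 for Xbp1 and 0.13 for Hsp90b1. The median of the 10 was 0.069, beside -0.0056 over all genes.

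Old PBS 3 and old PBS 4 each altered how these values read. Without old PBS 3, Herpud1 was lower in old rMETRNL than in old PBS 2 and 4 by a log2 fold change of -0.61 (SE 0.16, edgeR adjusted p = 0.0428), the only one of the 10 genes to pass the threshold under any setting tried. In that fit 1560 of 15981 genes (9.76%) passed it, against 17 with every library, so 1 of 10 was close to the share among all genes. In the same fit Dnajb9 stood at -0.52 (edgeR adjusted p = 0.0990), Pdia4 at 0.51 (0.105), Atf4 at -0.40 (0.238) and Sdf2l1 at 0.53 (0.236). By age, without old PBS 3, Herpud1 stood at 0.53 (edgeR adjusted p = 0.110) and Dnajb9 at 0.50 (0.190), with 0 of the 10 called, beside 401 of 15884 genes (2.52%). With old PBS 4 left out in its place, 0 of the 10 were called, beside 0.0558% of all genes by age and 0.0372% by treatment. Herpud1 then stood at -0.19 between old rMETRNL and old PBS, and the signs of Dnajb9, Atf4 and Xbp1 turned, to 0.070, 0.040 and 0.018. By age those of Pdia4 (0.013), Dnajb9 (-0.094), Xbp1 (-0.013) and Atf4 (-0.096) turned as well. Sdf2l1 kept its direction with any old PBS library left out, from -0.43 to -0.34 by age and from 0.44 to 0.53 by treatment.

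Old rMETRNL and young PBS, which differ in both age and treatment, were closest. In that comparison edgeR called 0 of the 10 genes and 0 of 15396 genes in all (0%), with 371 genes (2.41%) and 0 of the 10 at an unadjusted p under 0.05, and DESeq2 also called 0. All 10 genes overlapped between the groups, where 3.92% of all genes lay apart upwards and 2.95% downwards. The largest difference was that of Pdia4 at 0.23 (SE 0.13, 95% interval -0.058 to 0.52, edgeR adjusted p = 0.9996), and the other 9 lay between -0.083 for Ddit3 and 0.10 for Sdf2l1. The median of the 10 was 0.0066, beside 0.00089 over all genes. Intervals of Hspa5, Hsp90b1, Calr, Dnajb9 and Xbp1 lay within 0.3 of 0 on the log2 scale.

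Over the 9 libraries Hspa5, Hsp90b1 and Calr resembled each other most. Likeness was measured as the root mean square difference of log2 CPM after each gene's own mean was subtracted, which is a description over 9 libraries that share their depth and scaling. Hsp90b1 and Calr were most alike (0.042), followed by Hspa5 with Calr (0.083) and Hspa5 with Hsp90b1 (0.093), the 3 chaperones with an exact ERSE. Dnajb9 and Herpud1 differed by 0.12, Xbp1 and Ddit3 by 0.13, Dnajb9 and Atf4 by 0.14, and Calr and Xbp1, and Herpud1 and Atf4, by 0.15 each. The least alike were Pdia4 and Dnajb9 (0.54), which moved in opposite directions in old PBS 3 and 4. Genes with little variation are alike by this measure whatever they do. The SD of log2 CPM within old PBS was 0.060 for Hsp90b1, 0.079 for Calr and 0.12 for Hspa5, against 0.62 for Dnajb9, 0.49 for Herpud1 and 0.44 for Atf4, with a median of 0.36 over all genes kept. Within young PBS and old rMETRNL the median was 0.21 and 0.18, and Dnajb9 was at 0.19 and 0.11, Herpud1 at 0.12 and 0.14 and Atf4 at 0.31 and 0.21. Among all genes kept, the SD of Atf4 stood at percentile 70.3 in young PBS, 61.0 in old PBS and 58.5 in old rMETRNL.

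**Figure D3:**
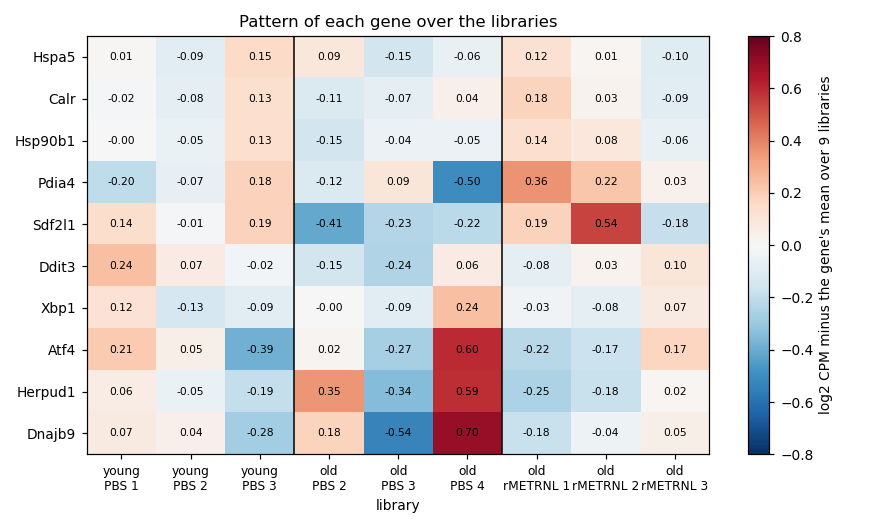
Each cell gives a gene's log2 CPM in one library (columns, split by group) minus the mean of that gene over the 9 libraries, with red above and blue below the mean. Hspa5, Calr and Hsp90b1 stay between -0.15 and 0.18 throughout, whereas Atf4, Herpud1 and Dnajb9 reach 0.60, 0.59 and 0.70 in old PBS 4 and -0.27, -0.34 and -0.54 in old PBS 3.

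Ratios of raw counts within a library do not depend on scaling, and all 4 examined overlapped between groups. There were 2.58 ± 0.42 counts of Hspa5 per count of Herpud1 in young PBS, 2.10 ± 0.62 in old PBS and 2.70 ± 0.45 in old rMETRNL (SD, n = 3), and in old PBS 2, 3 and 4 the ratio was 2.01, 2.76 and 1.53. Pdia4 stood to Herpud1 as 0.38 ± 0.086, 0.31 ± 0.17 and 0.47 ± 0.096 in the same order of groups, and to Dnajb9 as 0.92 ± 0.26, 0.82 ± 0.50 and 1.07 ± 0.21. Ddit3 stood to Atf4 as 0.16 ± 0.023, 0.13 ± 0.025 and 0.16 ± 0.015. All 4 ratios were highest in old PBS 3 and lowest in old PBS 4 among the old PBS libraries. The genes nearest to Hspa5 in pattern, among 9221 with a mean of at least 10 CPM and the 10 genes left out, were Vps4b (0.053), Dhx16, Dnajc10, Copb2 and Actr1a (0.063), with a median distance of 0.23 over all genes. Dnajc10 encodes another J-domain protein of the endoplasmic reticulum, and Copb2 a subunit of the coat of vesicles that return to it. Nearest to Herpud1 were Ddx1 (0.046), Abcd3, Arl8b, Ybx1 and Plekhb2 (0.058), and nearest to Ddit3 were Vrk3 (0.056), Fbxo9, Erp44, Mettl9 and Ank1 (0.065), with median distances of 0.33 and 0.24.

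Other genes of the pathway were read from lists of known members, and 0 genes of any of the 7 lists passed edgeR's adjusted threshold in any comparison with every library kept. The shares of all genes at an unadjusted p under 0.05, both directions together, were the 5.91%, 8.07% and 2.41%. Of 25 other chaperones and folding enzymes, 3 were lower by age (old PBS against young PBS) at an unadjusted p under 0.05 and 0 were higher, namely Fkbp14 (log2 fold change -0.46, edgeR adjusted p = 0.748), Txndc5 (-0.41, 0.771) and Pdia5 (-0.57, 0.772). Against old PBS, old rMETRNL had 2 of the 25 higher at that level and 0 lower, Fkbp11 (1.25, edgeR adjusted p = 0.378) and Fkbp14 (0.51, 0.499). The list's median was -0.13 by age, 0.15 by treatment and 0.025 between old rMETRNL and young PBS. Its most abundant genes were P4hb, at 327 ± 34.0, 275 ± 4.59 and 331 ± 25.4 CPM in young PBS, old PBS and old rMETRNL (SD, n = 3), Pdia3 at 173 ± 16.9, 144 ± 25.5 and 185 ± 9.33, and the lectin chaperone Canx at 152 ± 13.0, 162 ± 11.7 and 149 ± 4.87. Of these, P4hb, a subunit of the collagen prolyl hydroxylase, had its 3 old PBS values below both other groups with TMM factors, the only scaling given for it. Of all genes tested, 5.25% lay apart as lower by age and 6.95% as higher by treatment.

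Sensor and translocation genes with an unadjusted p under 0.05 were all lower by age or higher by treatment. Of 15 sensors and transcription factors, Creb3l1, a factor known for its targets among collagen genes, and Eif2ak3, which encodes PERK, were lower by age at an unadjusted p under 0.05, at -0.66 (edgeR adjusted p = 0.719) and -0.56 (0.767). By treatment (old rMETRNL against old PBS) both were higher, at 0.69 (edgeR adjusted p = 0.406) and 0.55 (0.499), and 0 of the 15 lay in the opposite direction at that level. Atf6, at 58.6 ± 5.08, 62.1 ± 12.3 and 59.4 ± 4.98 CPM in young PBS, old PBS and old rMETRNL, overlapped between groups. Among 26 genes of protein entry into and retrieval to the endoplasmic reticulum, the KDEL receptor genes Kdelr3 (-0.84, edgeR adjusted p = 0.518) and Kdelr2 (-0.38, 0.808) were lower by age at an unadjusted p under 0.05. By treatment 4 were higher at that level and 0 lower. The lowest 3 p-values were those of Kdelr3 (0.89, edgeR adjusted p = 0.337), Sec61b (0.72, 0.406), a channel subunit, and Ostc (0.53, 0.418), a subunit of the oligosaccharyltransferase, and the fourth was Kdelr2 (0.43, 0.533). The medians were -0.056, 0.22 and 0.018 for the sensors and -0.11, 0.043 and 0.0012 for the translocation genes by age, by treatment and between old rMETRNL and young PBS.

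Targets of ATF4 and CHOP held genes in both directions. Of 28 targets of ATF4 and CHOP tested by age, 2 were higher and 1 lower at an unadjusted p under 0.05. Chac1, which encodes a glutathione-degrading enzyme, was at 9.36, 9.66 and 4.57 CPM in young PBS 1, 2 and 3, at 29.6, 7.92 and 54.3 in old PBS 2, 3 and 4 and at 5.90, 10.6 and 19.97 in old rMETRNL 1, 2 and 3. Old PBS 3 lay inside the range of young PBS, so the groups overlapped. The log2 fold change of Chac1 by age was 1.95 (edgeR adjusted p = 0.539), 2.41 without old PBS 3 (0.0174) and 1.24 without old PBS 4 (0.878). The others were Slc7a11 (1.83, edgeR adjusted p = 0.806), a cystine transporter under 2 CPM in every library, and Mthfd2 (-0.63, 0.695). By treatment Nupr1 was higher (0.64, edgeR adjusted p = 0.321) and Cebpb lower (-0.52, 0.564), and against young PBS old rMETRNL had Nupr1 higher (0.36) and Atf3 lower (-0.32), both with an edgeR adjusted p of 0.9996. The medians of this list were -0.018, -0.042 and -0.024. Among genes of degradation at the endoplasmic reticulum, 0 of 19 had an unadjusted p under 0.05 by age and 1 of 20 by treatment, the higher Edem1 (0.55, edgeR adjusted p = 0.610), with medians of 0.076, -0.10 and 0.024. Vcp, the segregase of this route, was at 526 ± 24.3, 565 ± 60.0 and 518 ± 8.93 CPM.

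Cytosolic heat shock genes, which answer mainly to HSF1, had medians of 0.11, -0.20 and -0.047 over 16 genes, with 0 of them at an unadjusted p under 0.05 by age and Hsf1 itself lower by treatment (-0.37, edgeR adjusted p = 0.609). Against young PBS, old rMETRNL had Dnajb1 higher (0.35) and Cryab lower (-0.34) at that level, both with an edgeR adjusted p of 0.9996. This list, named cytosolic throughout, also holds Hspd1 and Hspe1, which encode mitochondrial chaperones. Hsp90ab1, Hspa8 and Hspb8 were the most abundant, at 946 ± 86.8, 907 ± 52.2 and 523 ± 41.4 CPM in young PBS. The 45 other genes whose promoter windows held an exact ERSE or ERSE-II included 41 of the count table, of which 24, 25 and 23 were tested in the 3 comparisons. At an unadjusted p under 0.05 there were 0 of them in any comparison, and their medians of -0.017, 0.045 and 0.030 lay close to those of all genes tested. Hnrnpa3, Rbm39 and Acacb were the most abundant of them, and Hnrnpa3, an RNA-binding protein gene, was at 187 ± 5.07, 188 ± 14.3 and 198 ± 1.46 CPM in young PBS, old PBS and old rMETRNL.

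These lists, too, depended on old PBS 3 and 4. Without old PBS 3, edgeR called Chac1, Atf3 and Kdelr3 by age among the genes of the 7 lists, where 2.52% of all genes were called. By treatment, where 9.76% of all genes were called, it called 2 of 25 other chaperones (Fkbp11 and Ppib, both higher), Edem1 among the degradation genes (higher) and 3 of 15 sensors and factors (Eif2ak3, Creb3l1 and Creb3l3, all higher). It also called 4 of 28 targets of ATF4 and CHOP (2 higher and 2 lower, among Chac1, Vldlr, Psat1 and Bbc3), Kdelr3 of 26 translocation genes (higher), 0 of 16 cytosolic heat shock genes and 3 of 25 genes with an ERSE or ERSE-II (Acacb, Lgalsl and Spats2l). Without old PBS 4, 0 genes of the 7 lists were called in either comparison. Creb3l1 stood at 0.92 by treatment without old PBS 3 (edgeR adjusted p = 0.0191) and at 0.54 without old PBS 4 (0.596), and Kdelr3 at 1.17 (0.0145) and 0.74 (0.575). The median of the other chaperones kept its sign, at -0.22 and -0.18 by age and 0.23 and 0.18 by treatment without old PBS 3 and without old PBS 4. By treatment without old PBS 3, the medians of ATF4 and CHOP targets (0.12) and of translocation genes (-0.011) turned sign.

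**Figure D4:**
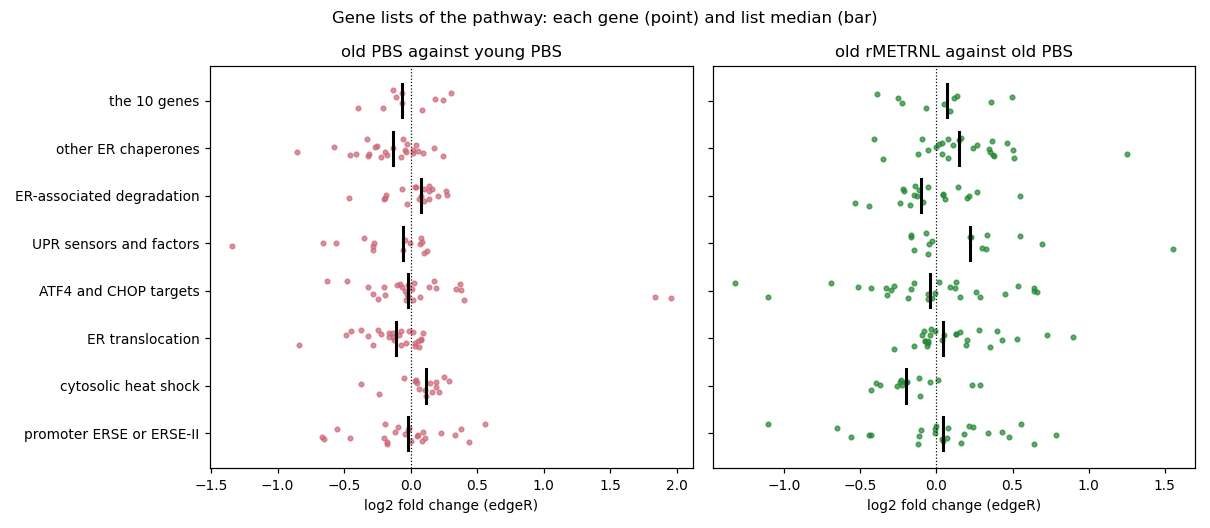
Points give the edgeR log2 fold change (horizontal axis) of each tested gene of the 10 and of 7 pathway lists (rows) by age (left) and by treatment (right), and bars the median of each list. The medians of the other endoplasmic reticulum chaperones sit at -0.13 on the left and 0.15 on the right, and those of cytosolic heat shock genes at 0.11 and -0.20, with no gene past the adjusted threshold when every library was kept.

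Cell type markers differed among the same libraries. In bulk samples, fewer cells of a type and less RNA per cell cannot be told apart. The 12 fibroblast and fibro-adipogenic markers, which include the collagen genes Col3a1 and Col1a2, summed to 7729, 11550 and 5570 CPM in old PBS 2, 3 and 4. These sums lay below the 13540 to 19600 of young PBS and the 12740 to 19740 of old rMETRNL. Much of each sum was collagen RNA. Col3a1 was at 6464 ± 1114, 3207 ± 1292 and 7086 ± 1952 CPM in young PBS, old PBS and old rMETRNL (SD, n = 3). Col1a2 was at 3110 ± 989.5, 1312 ± 563.7 and 2741 ± 562.2. By age the median log2 fold change of the 12 markers was -0.463, with 3 of them above 0. By treatment 12 of 12 were above 0, with a median of 0.602. The 12 macrophage markers summed to 1471, 2233 and 1603 CPM in old PBS, against 2051 to 2453 and 2264 to 2564, and 9 endothelial markers to 378, 424 and 285, against 419.8 to 489.5 and 404 to 533. For 12 markers of mature fibres the sums were 159200, 98490 and 170800 CPM in old PBS 2, 3 and 4, against 132100 to 153600 in young PBS and 129200 to 142200 in old rMETRNL. At this scaling old PBS 4, highest for mature fibres, was also the highest library for Dnajb9, Herpud1 and Atf4. Old PBS 3, lowest for mature fibres, was the lowest for Dnajb9 and Herpud1. Old PBS 4 also had the lowest TMM factor of the 9 libraries (0.827) and old PBS 3 the highest (1.16). Relative to totals alone, that scaling raises every CPM of old PBS 4 and lowers every CPM of old PBS 3.

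Markers of new fibres ran the other way within old PBS, with 1422, 5192 and 723 CPM over 10 genes in old PBS 2, 3 and 4, against 2135 to 2430 in young PBS and 1745 to 2462 in old rMETRNL. Plasma cells, which secrete antibody and hold much endoplasmic reticulum, had 13 markers that summed to 162, 112 and 214 CPM in old PBS. These sums lay above the 68.3 to 89.8 of young PBS and the 80.4 to 94.8 of old rMETRNL. The excess came from the most abundant markers, Ighm and Igkc, and the other markers together were not higher in old PBS. Ighm was at 32.2 ± 5.57, 91.5 ± 42.3 and 35.3 ± 5.28 CPM in young PBS, old PBS and old rMETRNL (SD, n = 3). Igkc was at 6.49 ± 2.30, 34.1 ± 15.5 and 9.41 ± 5.39. Of 9 markers tested by age, 6 had a log2 fold change above 0, but only Ighm and Igkc did not overlap between groups. Brain genes summed to 558, 286 and 595 CPM in old PBS, against 248 to 334 and 232 to 301, mostly Camk2a, which muscle also expresses, and Mbp. Liver genes summed to 117, 133 and 55.3 CPM, against 14.7 to 63.9 and 28.5 to 109. In young PBS and old rMETRNL most of that sum was the liver gene Hp, at 32.1 ± 18.8 and 53.5 ± 39.9 CPM, against 44.2 ± 44.0 in old PBS. The overlap of the liver sums therefore does not describe the liver genes that were at 0 outside old PBS. The part of each of these cell types and tissues in the values of the 10 genes was not tested.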

How the data were processed

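RNA of 9 libraries was compared in 3 groups of 3, as titled in the labels. As deposited by the authors, the values are raw, unnormalized read counts on 54532 Ensembl genes, one column per library. Per the labels and the study's methods, NEBNext Ultra libraries were sequenced paired-end, mapped with STAR and counted with featureCounts to build mm9, with versions and strand setting not given in the sources used here. Coordinates and exon lengths came from GENCODE's annotation of GRCm38, which held 54495 of the identifiers, and promoters from RefSeq (GRCm38.p6).

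From the counts, edgeR 4.0.16 in R 4.3.3 compared groups in pairs, 6 libraries at a time (filterByExpr, TMM, glmQLFit, glmQLFTest, Benjamini-Hochberg over all genes tested, threshold 0.05). Standard errors came from the log2 fold change and F statistic. The script was tested on simulated data. Levels are CPM with TMM factors over 9 libraries, and patterns were computed on log2 CPM (prior count 2). The floor of 3 counts covers counting error only. Within groups, libraries differed beyond sampling noise (chi-square per degree of freedom 10.9 to 169).

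The 10 genes and the lists were chosen with earlier results of these data known. The text names all 10, and draws its other names from the 3 most abundant genes of each list and its 3 of lowest unadjusted p under 0.05, from the 2 most abundant of each marker list, and from the 5 genes nearest in pattern to Hspa5, Herpud1 and Ddit3. Mobp, Snap25, Ppib, Creb3l3, Psat1, Bbc3, Lgalsl, Spats2l, Hspd1 and Hspe1 fall outside this rule and were named after their values were seen. The settings varied were the size factors (those of DESeq2), the filter (none, or at least 10 counts in every library), the test (DESeq2 1.42.0), a joint fit of 9 libraries, a replicate block, each library left out and, added after the data were seen, scaling by total counts alone and the lists without old PBS 3 or 4. The labels give no batch or date. Some list genes are not reported here.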

Additional observations from a re-analysis of the deposited data

How the results depend on the processing

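Of 390 alternative values of the 10 genes, 355 kept their sign and their side of the threshold, 34 changed sign and 1, Herpud1 without old PBS 3, passed the threshold. With every library kept, the lowest edgeR or DESeq2 adjusted p of any of the 10 was 0.436. Genes called numbered 354 with no filter, 3 with at least 10 counts in every library, 265 with DESeq2 and 63 with all 9 libraries by age (10 as reported), 740, 1, 354 and 71 by treatment (17), and 132 with no filter between old rMETRNL and young PBS (0). With one library left out they ranged from 2 to 401, from 3 to 1560 and from 0 to 1, and the number of the 10 called from 0 to 1 by treatment. The median of the 10 ranged from -0.12 to -0.0028, from 0.0042 to 0.097 and from -0.010 to 0.031.

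The library numbers were not taken as pairs in the main fits, since no label says that they are. Correlations of same-numbered deviations from the group mean ran from -0.316 to 0.412. They cannot decide the question, because deviations within a group of 3 libraries sum to 0. With the replicate block 11, 65 and 0 genes were called and 0 of the 10, the median by treatment was 0.11, and the sign changed for Dnajb9 by age (-0.061) and by treatment for Hspa5 (-0.021), Dnajb9 (0.18), Xbp1 (0.034) and Atf4 (0.12). The block moved no call of the 10. Old PBS is numbered 2 to 4 and the other groups 1 to 3. In the comparisons with old PBS, old PBS 4 and library 1 of the other group were therefore alone in their blocks. Those fits drew their contrast from libraries 2 and 3 of each group, so they cannot decide whether all libraries were paired.

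Scaling by total counts alone moved the medians to -0.13, 0.18 and 0.051 and the summed level of the 10 to 941, 904 and 974 CPM in young PBS, old PBS and old rMETRNL, which put old PBS lowest in place of highest, and the sign changed for Xbp1 by treatment (0.046) and, between old rMETRNL and young PBS, for Hspa5 (0.030), Dnajb9 (0.038) and Atf4 (0.0058). With 1 mismatch 8 promoters held an ERSE or ERSE-II.

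Signs also changed with one library left out. By age the ranges were -0.28 to 0.013 for Pdia4, -0.094 to 0.50 for Dnajb9, -0.013 to 0.17 for Xbp1 and -0.096 to 0.35 for Atf4. By treatment they were -0.0084 to 0.12 for Hspa5, -0.52 to 0.070 for Dnajb9, -0.14 to 0.018 for Xbp1 and -0.40 to 0.040 for Atf4. Between old rMETRNL and young PBS they were -0.069 to 0.055 for Hspa5, -0.012 to 0.086 for Hsp90b1, -0.042 to 0.093 for Calr, -0.097 to 0.27 for Sdf2l1, -0.11 to 0.052 for Dnajb9, -0.027 to 0.096 for Xbp1 and -0.19 to 0.085 for Atf4. The cause was not tested for any of these. Each of the 10 genes had at least 71 counts in every library.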
